A study of Mus musculus with 8 samples.

Results

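The proteasome subunit genes were examined for SMC1 peaks in cultured mouse cortical neurons. They were chosen by name, as protein-coding genes of the GRCm38 RefSeq table whose symbol begins with Psm, a letter from a to g and a digit. The rule found 51 of 21900 protein-coding genes. Of these, 48 carry a symbol of digits only after the letter, and 3 carry further letters: Psmc3ip, a meiotic recombination factor, Psme3ip1, a protein named for binding Psme3, and Psme2b, a copy related to the activator gene Psme2. These 3 are not proteasome subunits by name. They follow the rule and are in the counts below, and the main counts are also given without them. SMC1 is a subunit of cohesin, the ring that extrudes chromatin loops, and was mapped by chromatin immunoprecipitation and sequencing (ChIP-seq). Wild-type cortical neurons from Swiss-Webster embryos of day 16 were grown to day 13 in vitro. One group was left untreated (resting), and the other received 50 µM NMDA, an agonist of a glutamate receptor class, for 10 min and then 50 min in drug-free medium. Each condition had 2 ChIP and 2 input samples, described as biological replicates, and 1 list of peaks seen in both ChIP replicates.

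The proteasome degrades proteins tagged with ubiquitin. Its core particle, the 20S proteasome, is a barrel of alpha rings, which gate the entry, and beta rings, which hold the proteolytic sites. The 19S regulatory particle caps the barrel: its ATPases (Psmc genes) unfold substrates, and some of its non-ATPase subunits (Psmd genes) bind ubiquitin or remove it. Psmd5, Psmd9 and Psmd10 encode assembly chaperones of this particle and are counted here with the 19S genes. Other members are alternative activators (Psme genes), the regulator PI31 (Psmf1) and chaperones that assemble the core (Psmg genes). Neurons use proteasomes in the turnover of synaptic proteins, and most subunits are made in all cells.

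There were 12359 peaks in the list at rest and 1684 in that after NMDA. The strength of a peak is the authors' −log10 p of the peak caller summed over both replicates. It grows with library depth, which is unknown here, so strengths are given as percentiles within their own list, the share of its peaks that are no stronger. Both lists stop at an irreproducible discovery rate (IDR) of 0.05, and a gene without a listed peak may still bind SMC1 below that limit. With 1 list per condition, and lists that differ so much in length, fewer genes near an NMDA peak do not show a loss of SMC1. No test of a condition was possible, and the counts are descriptions of these lists.

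The promoters of 5 members whose start site lay inside a resting peak are shown first, since a start site was the most frequent place of a peak touching a proteasome gene. They were taken in order of peak strength: the 19S ATPase genes Psmc6 and Psmc4, the 19S lid gene Psmd8, the 20S alpha gene Psma7 and the 19S lid gene Psmd6. Each is the RefSeq promoter on GRCm38.p6, 5′ to 3′ along the gene, with 250 bases before the start site. The windows are chr14:45329574-45329873 (plus strand) for Psmc6, chr7:28050043-28050342 (minus) for Psmc4, chr7:29180624-29180923 (minus) for Psmd8, chr2:180042415-180042714 (minus) for Psma7 and chr14:14120896-14121195 (minus) for Psmd6. Capitals mark matches on either strand to any of the 8 short motifs described further on.
Psmc6: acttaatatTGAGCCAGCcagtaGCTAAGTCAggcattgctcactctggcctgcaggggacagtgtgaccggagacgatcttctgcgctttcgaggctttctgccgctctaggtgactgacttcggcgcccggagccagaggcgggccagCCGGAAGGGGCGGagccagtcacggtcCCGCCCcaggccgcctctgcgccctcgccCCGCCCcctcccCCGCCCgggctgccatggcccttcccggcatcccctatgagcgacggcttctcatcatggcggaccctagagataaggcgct
Psmc4: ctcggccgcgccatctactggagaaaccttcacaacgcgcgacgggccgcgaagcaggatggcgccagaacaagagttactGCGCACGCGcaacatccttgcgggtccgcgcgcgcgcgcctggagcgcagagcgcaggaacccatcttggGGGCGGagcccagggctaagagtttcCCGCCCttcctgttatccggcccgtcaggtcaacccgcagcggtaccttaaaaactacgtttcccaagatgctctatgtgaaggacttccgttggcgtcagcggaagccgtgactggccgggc
Psmd8: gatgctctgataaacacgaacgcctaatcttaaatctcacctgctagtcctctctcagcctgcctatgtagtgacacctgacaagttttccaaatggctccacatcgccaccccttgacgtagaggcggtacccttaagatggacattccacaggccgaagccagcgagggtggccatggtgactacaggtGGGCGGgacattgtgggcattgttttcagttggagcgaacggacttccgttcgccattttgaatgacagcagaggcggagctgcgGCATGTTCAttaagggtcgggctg
Psma7: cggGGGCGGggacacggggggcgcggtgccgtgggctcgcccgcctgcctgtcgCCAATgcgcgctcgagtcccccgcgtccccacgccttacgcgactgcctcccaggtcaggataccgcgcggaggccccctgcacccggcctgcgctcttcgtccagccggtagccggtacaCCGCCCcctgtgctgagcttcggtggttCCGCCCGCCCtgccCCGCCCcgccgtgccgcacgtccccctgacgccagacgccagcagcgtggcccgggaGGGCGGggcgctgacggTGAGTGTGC
Psmd6: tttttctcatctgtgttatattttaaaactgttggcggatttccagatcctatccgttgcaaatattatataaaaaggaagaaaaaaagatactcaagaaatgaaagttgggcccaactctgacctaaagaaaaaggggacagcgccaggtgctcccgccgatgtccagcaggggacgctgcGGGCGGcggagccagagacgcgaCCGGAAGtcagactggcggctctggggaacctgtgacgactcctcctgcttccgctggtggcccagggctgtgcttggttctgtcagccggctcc

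At rest, SMC1 peaks lay near about as many proteasome genes as not. A peak was within 10 kb of the gene body of 27 of 51 members (52.9%, exact 95% interval 38.5 to 67.1%, covering counting error over genes only). The same held for 38.2% of all protein-coding genes and for 34.9% of other genes of like length, weighted by the length deciles of the members. Proteasome genes are short, with a median length of 11.6 kb against 17.1 kb for all protein-coding genes, and resting peaks became more frequent with length, from 6.26% of genes in the shortest decile to 73.7% in the longest. Of the 27 genes, 18 had 1 resting peak, 7 had 2 and 2 had 3, so that 38 distinct resting peaks lay near members and none served 2 members.

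The distance band mattered for this count. A resting peak overlapped 13 members (25.5%, against 25.4% of all genes and 19.5% of genes of like length), and within 2 kb the number was 14 (27.5%, against 28.6% and 23.4%). A further 13 members had their nearest resting peak 2 to 10 kb away, 25.5% of members against 9.64% of all genes and 11.5% of genes of like length. For Psmc1, Psmd7, Psmb1 and Psmg4 the nearest coding gene end to that peak was the member's own. For the others of the 13 it was an end of another gene. Genes of like length were matched by length only, not by how close their neighbours lay. Within 50 kb, 40 members had a resting peak (78.4%, against 62.3% and 62.9%). The remaining 11 were 50.4 to 456 kb from one, Psmd10 on chromosome X being the farthest.

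**Figure D1:**
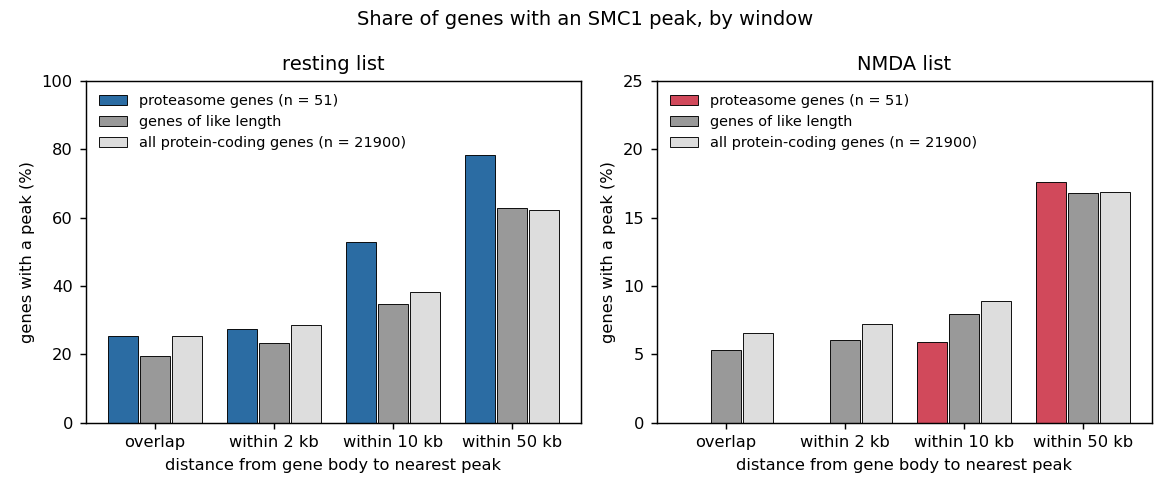
Share of genes (percent) with an SMC1 peak overlapping the gene body or within 2, 10 or 50 kb, for the 51 proteasome genes, other genes of like length and all 21900 protein-coding genes, in the resting list (left) and the NMDA list (right, on its own axis). At rest the proteasome bar stands 18.1 points above genes of like length within 10 kb, and in the NMDA list no proteasome gene has a peak within 2 kb.

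After NMDA, peaks were near 3 members: Psmb8, Psmd12 and Psmd13. This is 5.88% of 51 (exact 95% interval 1.23 to 16.2%), against 8.94% of all protein-coding genes and 7.96% of genes of like length. All 3 also had a resting peak, so 3 of the 27 members with a resting peak had both (11.1%, where 19% was the figure over all protein-coding genes with such a peak), and genes with both made up 5.88% of members and 7.27% of all genes. Within 2 kb no member had an NMDA peak, where 7.21% of all genes and 6.05% of genes of like length did. The median distance to the nearest NMDA peak was 227 kb over members and 343 kb over all genes on chromosomes with one. To the nearest resting peak it was 8.40 and 24.2 kb.

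Each of the 3 NMDA peaks near a member overlapped a resting peak, as did 75.8% of the whole NMDA list, and each lay closer to the end of another gene than to the member. Psmd12, a subunit of the 19S lid, had the strongest resting site of all members, at chr11:107468558-107469850, 1293 bp wide. Its replicate columns held −log10 p values of 42.2 and 30.1, a summed strength of 72.2 that was higher than or equal to 94.6% of the resting list. It lay 9678 bp before the 5′ end of Psmd12 and inside Pitpnc1, a phosphatidylinositol transfer protein gene, 870 bp from its 5′ end. The NMDA peak over it, at chr11:107468917-107470321, held 18.3 and 6.52 in its replicate columns, a strength of 24.8 at percentile 62.7 of its list, and its edge was 9207 bp from Psmd12 and 399 bp from the end of Pitpnc1. A second resting peak without an NMDA peak lay between, 5781 bp before Psmd12 (strength 32.5).

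Psmd13, another lid subunit, had resting peaks 4588 and 9687 bp beyond its 3′ end. The farther one, chr7:140908329-140909388, held 25.2 and 26.9 in the replicate columns, a strength of 52.1 at percentile 85.4. The NMDA peak chr7:140908378-140908927 lay within it, 9736 bp from Psmd13, with 11.1 in each replicate column, a strength of 22.1 at percentile 41.6. The nearest coding gene was Cox8b, for a subunit of cytochrome c oxidase, with its 5′ end 7932 bp away. The nearer resting peak of Psmd13 (36.7) had no NMDA peak.

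Psmb8 encodes a catalytic subunit of the immunoproteasome, the form that prepares peptides for antigen presentation, and stands beside Psmb9 and the peptide transporter genes Tap1 and Tap2. Its resting peak chr17:34204256-34204672 lay 2802 bp beyond its 3′ end, with replicate values of 17.1 and 18.0 and a strength of 35.1 at percentile 61.9. The NMDA peak chr17:34203894-34204718, with 11.1 and 10.1 (strength 21.2, percentile 31.7), began 2440 bp from Psmb8. Both overlapped an end of Tap2, which begins at 34204479 on the chromosome. The NMDA peaks of Psmd12 and Psmd13 were close to the 10 kb limit. Just outside it, Psmb11 and Psmb9 were 11.6 and 16.6 kb from an NMDA peak. Among resting peaks, the last members inside were Psmb6 (8.40 kb) and Psmc3ip (8.94 kb), and the first outside Psmc3 (10.7 kb) and Psmb11 (11.2 kb).

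**Figure D2:**
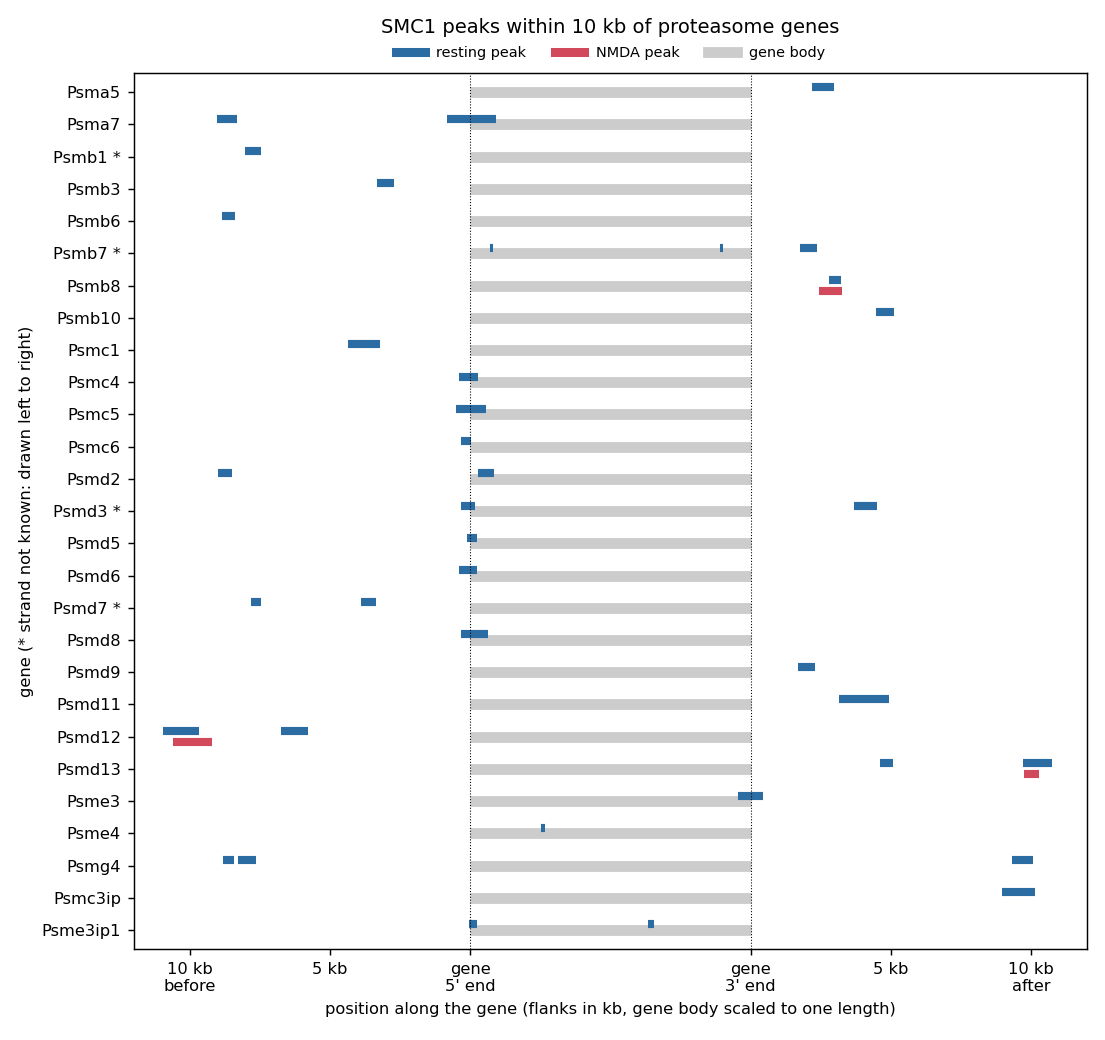
Peaks within 10 kb of the 27 proteasome genes that have one, drawn along each gene in its own direction: flanks in kb, the gene body (grey) scaled to one length, resting peaks blue and NMDA peaks red. Resting peaks gather at the 5′ end of 9 genes with a known start, while the 3 NMDA peaks (Psmb8, Psmd12, Psmd13) lie outside the genes.

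Start sites were examined next, for the 43 members with a promoter in the RefSeq table. The 8 without an entry were Psma8, Psmb1, Psmb2, Psmb7, Psmc3, Psmd3, Psmd7 and Psmg2. A resting peak covered a start site of 9 of the 43 (20.9%, exact 95% interval 10 to 36%), against 11.8% of 17492 protein-coding genes with an entry. An NMDA peak covered the start of none of the 43, against 4.84% of all (exact 95% interval for members 0 to 8.22%). Of all genes whose start was covered at rest, 24.3% were also covered after NMDA, and of the 9 members 0 were (exact 95% interval 0 to 33.6%). Both intervals contain the share over all genes. Without the 3 genes with further letters, a resting peak covered the start of 8 of 40 (20%) and an NMDA peak that of 0.

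Genes of the 19S group, its assembly chaperones included, made up 7 of the 9, and 17 of the 43 members with an entry. The 9 were the ATPase genes Psmc4, Psmc5 and Psmc6, the non-ATPase genes Psmd2, Psmd5, Psmd6 and Psmd8, the alpha ring gene Psma7, and Psme3ip1. Psmd2 encodes the large scaffold to which substrate shuttles dock, and Psmd5 a chaperone of the ATPase ring. The peak at Psmc6, chr14:45329484-45329869, was the strongest, and its replicate columns differed, with 10.5 and 28.3 (strength 38.8, percentile 69.2). At Psmc4 the peak chr7:28049848-28050494 held 16.8 in both columns (strength 33.6, percentile 58.8). These 2 were above the middle of the resting list, and the other 7 were below it.

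Psmd8 had 7.69 and 17.7 in the replicate columns (strength 25.4, chr7:29180260-29181019), and Psma7 11.3 and 11.5 (strength 22.9) in the widest of the 9 peaks, chr2:180041898-180043306, with 1409 bp. Psmd6 had 11.3 and 10.8 (strength 22.1, chr14:14120733-14121362). Psmd5, Psmc5, Psmd2 and Psme3ip1 had strengths of 20.0, 19.9, 18.7 and 18.6, between percentiles 4.73 and 10.6. Over the 9, the median strength was 22.1 (percentile 20.2), and over the other 29 resting peaks near members it was 33.2 (percentile 57.3). Over the whole resting list the 1964 peaks that cover a coding start had a median of 26.8 and the rest 31.1. Of 1408 start-covering resting peaks between the lowest and highest member strengths (18.6 to 38.8), 19.03% overlapped an NMDA peak. None of the 9 at members did.

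**Figure D3:**
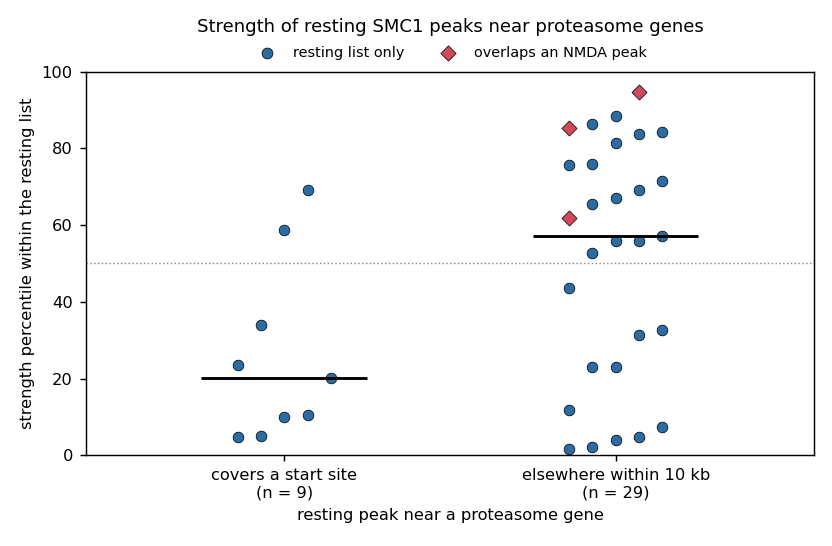
Strength percentile within the resting list for each of the 38 resting peaks near proteasome genes, split by whether the peak covers a member's start site. Bars are medians (20.2 and 57.3), and the dotted line is the middle of the list. The 3 red diamonds overlap an NMDA peak, and none of them covers a member's start site.

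Some of these starts are shared with a neighbour. The peak at Psma7 also covered the start of Ss18l1, a neuronal chromatin remodelling gene 19 bp away on the opposite strand. The peak at Psmc5 also covered that of Ftsj3, a ribosomal RNA processing gene 101 bp away, and the peak at Psme3ip1 that of Rspry1 at 215 bp. The other 6 had no further coding start of the table within 1 kb. Which of the paired genes a peak belongs to cannot be told apart. Over all 38 resting peaks, the nearest end of a protein-coding gene was that of the member in 22 cases and that of another gene in 16. The 22 include ties at Psma7, Psmc5, Psme3 and Psme3ip1, where the peak overlapped an end of the member and of another gene.

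The promoters of members were searched for 8 short motifs on both strands, and matches of different motifs may overlap. The 43 members had 47 promoters, set against 21263 promoters of protein-coding genes, all of 300 bases. The core of the antioxidant response element, TGANNNNGC, which the proteasome regulator encoded by Nfe2l1 can bind, was found in 27 of 47 (57.4%, against 41.7% of all). The ETS core CCGGAAG was found in 17 (36.2%, against 11.6%). Without the 3 genes with further letters, these 2 motifs were in 25 and 15 of 43 promoters. The motif of nuclear respiratory factor, GCGCANGCG, was in 7 (14.9%, against 8.58%), the YY1 core AAGATGGCG in 2 (4.26%, against 1.83%) and the CTCF core CCACNAGG in 5 (10.6%, against 5.06%). The CCAAT box was in 16 (34.04%, against 38.2%), the SP box GGGCGG in 25 (53.2%, against 46.2%) and the cyclic AMP response element TGACGTCA in 0 (against 2.23%).

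Beside the 9 covered promoters, 38 promoters of members were not covered. The SP box was in 9 of 9 covered and 16 of 38 uncovered promoters, and the ETS core in 4 of 9 and 13 of 38. The response element core was in 5 of 9 and 22 of 38, and the CTCF core in 1 of 9 and 4 of 38. Covered starts of all genes held the SP box in 74.5% of cases. Covered member promoters had a median of 60.7% G and C and 22 CpG dinucleotides, and uncovered ones 57.0% and 18. Over all coding genes the medians were 65.3% and 25.5 at covered starts and 56.3% and 13 in general. In the printed promoters, counted from the start site, Psmc6 has an ETS match beginning at -100 followed by an SP box at -93, and Psmd6 an ETS match at -45. Psmc4 has a match for nuclear respiratory factor at -169, and Psma7 6 SP boxes. A match is a string of letters, not a binding site.

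In the alpha ring of the core particle, a resting peak was near 2 of the 8 genes, Psma7 and Psma5 (25%, against 36.2% of genes of like length). Psma7 had a further peak 8313 bp before its start, inside Ss18l1, with 17.6 and 30.0 in the replicate columns (strength 47.6, chr2:180050777-180051502). The one near Psma5 lay 2177 bp beyond its 3′ end (strength 24.9) and 1039 bp from Sort1, a sorting receptor gene. Psma1, Psma2, Psma3, Psma4 and Psma6, and Psma8, the testis form, had their nearest resting peak 19.4 to 68.3 kb away and none within the window.

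Of the 7 constitutive beta genes, 4 had a resting peak, where 38.2% of all protein-coding genes did: Psmb1, Psmb3, Psmb6 and Psmb7. Psmb7, for the trypsin-like subunit, had 3. The strongest, chr2:38645718-38646315, stood 1766 bp outside the gene with 31.7 and 24.6 in the replicate columns (strength 56.3, percentile 88.3), and the 2 inside the gene had strengths of 24.7 and 18.3. Psmb6, for the caspase-like subunit, had a peak 8403 bp before its 5′ end (22.7), Psmb3 one 2713 bp before it (18.6) and Psmb1 one 7467 bp outside (32.5). Psmb5, the chymotrypsin-like subunit that proteasome inhibitors such as bortezomib target, had none within 22.8 kb, and Psmb2 and Psmb4 none within 76.6 and 15.8 kb. Of the immune and thymus forms, Psmb8 and Psmb10 had a resting peak, the latter at 31.2 and 533 bp from the end of Pskh1, and Psmb9 and Psmb11 had none.

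In the 19S group, assembly chaperones included, 4 of 6 ATPase genes and 10 of 14 non-ATPase genes had a resting peak. In all this was 14 of 20 (70%, against 37.3% of genes of like length). Of the core genes, alpha and beta with the immune and thymus forms, 8 of 19 had one (42.1%, against 33.5%). The difference between these groups was not tested. Besides the 3 ATPase genes with a covered start, Psmc1 had a peak 3228 bp before its 5′ end (16.2 and 22.6 in the replicate columns, strength 38.7), and Psmc2 and Psmc3 had none. Among the non-ATPase genes, Psmd2 also had a peak 8482 bp before its 5′ end (23.2 and 27.4, strength 50.6, chr16:20642119-20642640), inside Ece2, an endothelin-converting enzyme gene. Psmd11, a lid subunit, had a wide one of 1791 bp at 3148 bp beyond its 3′ end (29.1 and 14.3, strength 43.4, chr11:80476396-80478186), overlapping an end of Cdk5r1, the activator of the neuronal kinase Cdk5.

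Psmd3 had a weak peak over an end of the gene (17.8) and a stronger one at Csf3 (33.2). Psmd7, the partner of the deubiquitinase in the lid, had 2 weak peaks (20.1 and 19.1) within 7467 bp, and the chaperone gene Psmd9 1 (28.2), at 82 bp from the 5′ end of its neighbour Wdr66. The 4 non-ATPase genes without a peak in either list were Psmd1, Psmd4, a ubiquitin receptor, Psmd14, the deubiquitinase, and Psmd10, a chaperone also known as gankyrin. They were 54.7 to 456 kb from a resting peak.

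Of the 4 activator genes, Psme3, the nuclear activator, had the only peak over a 3′ end among members of known strand. It spanned chr11:101323210-101323974 with 18.6 and 31.3 in the replicate columns (strength 50.0, percentile 83.7). The same peak also overlapped the 5′ end of the neighbouring gene Aoc2. Psme4, the longest member at 109 kb, had 1 weak peak inside (17.8, percentile 1.65), and Psme1 and Psme2 had none. PI31, encoded by Psmf1, had none within 12.8 kb. Of the assembly chaperones Psmg4 had 3 resting peaks, with strengths of 22.7 and 40.2 before the gene and 43.4 beyond it (30.0 and 13.3 in the replicate columns), and Psmg1, Psmg2 and Psmg3 had none. Of the 3 genes with further letters, Psme3ip1 had a peak inside the gene (25.2 and 28.4, strength 53.5) besides the one at its start, Psmc3ip one 8943 bp away at Coasy (37.6), and Psme2b none. Without these 3, a resting peak was near 25 of 48 genes (52.1%, against 35.6% of genes of like length) and an NMDA peak near 3 (6.25%, against 8.13%).

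**Figure D4:**
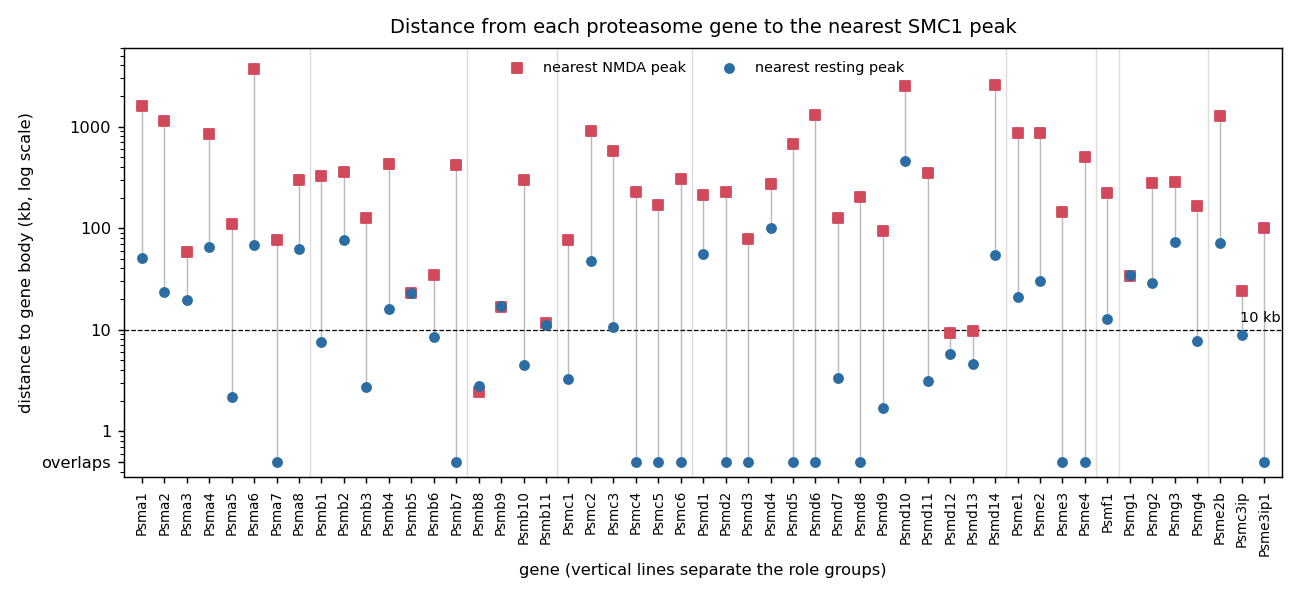
Distance (kb, log scale) from each of the 51 proteasome genes to the nearest resting peak (blue circles) and the nearest NMDA peak (red squares), ordered by role from the alpha ring to the genes with further letters. Points at the foot overlap the gene (13 for resting, 0 for NMDA), and the dashed line marks 10 kb, which 3 red squares fall below.

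The other genes of the pathway, a list of 30 regulators, receptors and ubiquitin genes of which 29 matched the table, were counted the same way. A resting peak was near 10 of 29 (34.5%) and an NMDA peak near 6 (20.7%), against 39.4% and 9.17% of genes of like length, and 3 had both. Adrm1, a ubiquitin receptor of the 19S particle that does not carry a Psm symbol, had a peak over its start in both lists. Its strongest peak within 10 kb had 80.6 at rest (list median 30.2) and 21.9 after NMDA (list median 23.0). These strengths cannot be compared between the lists. Sem1, a further 19S subunit, had 1 over its start at rest (24.9). An NMDA peak without a resting peak within 10 kb covered the starts of the shuttle receptor gene Rad23b (23.2), the ubiquitin ligase gene Ube3a (19.5) and Zfand5 (24.4). Nploc4 and the neuronal ubiquitin hydrolase gene Uchl1 had peaks of both lists within 10 kb. Nfe2l1, the transcription factor that raises proteasome genes when proteasomes fail, had none, its nearest resting peak being 30.6 kb away, nor did Pomp, the assembly factor of the core. Thus 4 of 22 genes of this list with a promoter entry had an NMDA peak over the start. Of proteasome members 0 of 43 did. The share over all protein-coding genes with an entry was 4.84%, inside the exact interval for members (0 to 8.22%). Adrm1, among the 4, and Sem1 are 19S subunits left out of the members by their symbols. The contrast therefore rests in part on the naming rule, and the difference was not tested.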

How the data were processed

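Samples were grouped by the antibody and treatment in their labels, 4 groups of 2. The authors deposited 1 peak list per condition in the 20-column layout of the IDR tool, with no header. BWA, SAMtools, Trimmomatic, FastQC and MACS2, and mm10 and GRCm38.p6 as builds, are listed per the submitters' processing notes. Their versions and settings are not stated in the sources used here. The deposited values are the peak caller's −log10 p in each replicate, their sum, and a −log10 of the global IDR, used here as the authors' score for a stricter limit. The replicate columns carry no replicate numbers, and input samples were used only as far as the authors' peak calling did. Depth is unknown from these lists.

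Members and lists were chosen with earlier results of these data known. Gene positions came from the RefSeq table of GRCm38.p6, which has no strand. Strand and start sites came from the RefSeq promoter table, which matched 43 of 51 members. Distance runs from the nearest edge of a peak to the gene body. An overlap of 1 bp made 2 peaks shared. Genes of like length are all other protein-coding genes, with the share in each of 10 length bins weighted as the members. Replicate values are given for each NMDA peak within 10 kb of a member and for the strongest peak of the 10 members with the strongest resting peak. They are also given for the strongest covered starts. Position, width and percentile are given for some of these peaks, and other members are described by role. Neither enrichment nor conditions were tested. Python 3.11.15, numpy 2.4.6, pandas 2.3.3 and scipy 1.17.1 were used, and the distance and weighting code was tested on simulated data. Alternatives were other windows, a stricter IDR, peak midpoints, other length bins, other overlap limits and single replicate columns.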

Additional observations from a re-analysis of the deposited data

How the results depend on the processing

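Of 30 alternative values, 20 stayed within 1.5 times the reported one and 10 did not. The windows moved most: when the peak had to overlap the gene, 13 members had a resting peak, 0 an NMDA peak and 0 both. Within 2 kb the numbers were 14, 0 and 0, and within 50 kb 9 members had an NMDA peak and 9 had both. At a stricter IDR limit of 0.01 for each list, 0 members had an NMDA peak and 0 had both, while 18 had a resting peak. That limit left 350 of 1684 NMDA peaks and 7037 of 12359 resting peaks. The share over all genes at this limit is not given here, so the 0 and the 18 cannot be set against each other. With distance taken from the peak midpoint, 2 members had an NMDA peak and 2 had both. The 3 members near an NMDA peak therefore depend on the 10 kb window, on the IDR limit of the list and on how distance is measured. Digits-only symbols, peak midpoints, neighbouring members counted together (48 units), 20 length bins, leaving out olfactory and vomeronasal receptor genes, an overlap of at least 50% of the shorter peak, and gene ends within 500 bp or 2 kb stayed within that range. From single replicate columns, the median percentile of resting peaks near members was 39.0 and 50.0, against 54.3 from the sum. No paired analysis was possible because the lists join both replicates and their columns carry no replicate numbers. Depth, unknown here, limits every statement on a missing peak.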

Other observations

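Widening the window to 50 kb put 9 of the 51 members near an NMDA peak, or 17.6%. This was close to the 16.9% for protein-coding genes as a whole and the 16.8% for those of like length. The 9 members rested on 7 peaks. Psmb5 and Psmb11, for the chymotrypsin-like subunit and its thymus form, shared the peak chr14:54641115-54642060, 23.1 and 11.6 kb away, which held 23.99 and 12.3 in its replicate columns (strength 36.3, percentile 93.2 of the NMDA list). It overlapped the resting peak chr14:54640752-54642099 (35.3 and 15.8 in the replicate columns, strength 51.1, percentile 84.8). Psmb9 shared the Tap2 peak with Psmb8, at 16.6 kb. The assembly chaperone gene Psmg1 had an NMDA peak 33.9 kb away (strength 19.1, percentile 10.7) over a resting peak of 23.5 (percentile 26.2). Those nearest to Psmb6 (34.4 kb, strength 20.6) and Psmc3ip (24.1 kb, 28.4) overlapped no resting peak. Thus 5 of the 7 NMDA peaks overlapped a resting peak, near the 75.8% of the whole NMDA list.

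Other families of large complexes were counted the same way, as a description with no test. A resting peak was within 10 kb of 44 of 100 ribosomal protein genes (44.0%, against 28.2% of genes of like length), 33 of 96 respiratory chain genes (34.4%, against 31.0%) and 21 of 56 translation initiation factor genes (37.5%, against 38.0%). An NMDA peak was near 7 ribosomal protein genes (7%, against 6.53% of genes of like length), 6 respiratory chain genes (6.25%, against 6.97%) and 7 initiation factor genes (12.5%, against 8.69%). Start sites were covered by an NMDA peak in 4 of 77, 3 of 78 and 4 of 44 of these genes (5.19, 3.85 and 9.09%). The share over all protein-coding genes with an entry was 4.84%. A resting peak covered the start in 8, 7 and 5 (10.4, 8.97 and 11.4%), against 11.8% of all.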
